A study of Mus musculus with 40 samples.

Results

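The regions described here are the stretches of chromatin at which acetylation of histone H3 at lysine 27 (H3K27ac) was called in blood progenitors carrying both Flt3-ITD and a heterozygous Runx1 state, and in none of the other genotypes studied. The peaks of 6 H3K27ac lists were merged on chromosomes 1 to 19 wherever they overlapped by 1 bp, and a merged region became a member when a peak of the Flt3-ITD/Runx1-het list overlapped it and no peak of the 5 other lists did. This left 8367 members among 70692 merged regions, 11.8% of all, and among the 34018 regions held by the Flt3-ITD/Runx1-het list they made up 24.6% (95% Wilson interval 24.1 to 25.1). The members were chosen by the presence or absence of called H3K27ac peaks, so their H3K27ac values are given as a description and with no test.

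The study profiled sorted haematopoietic stem and progenitor cells (HSCs and HPCs) of mice aged 21 days by ChIPmentation, in which Tn5 transposase adds sequencing adapters to chromatin on the antibody beads. The genotypes were wildtype, the single alleles Runx1-het, NUP98-HOXD13 and Flt3-ITD, and Flt3-ITD joined with either of the other 2 alleles (Flt3-ITD/Runx1-het, Flt3-ITD/NUP98-HOXD13). H3K27ac was measured in 3 samples of each genotype, or 4 for the NUP98-HOXD13 and Flt3-ITD/NUP98-HOXD13 genotypes, and H3K4me1 in 3 samples of each, or 4 for Flt3-ITD/NUP98-HOXD13. The source names of the Runx1-het groups join Runxf and Vav, which is read here as a floxed Runx1 allele deleted by a Vav-driven recombinase in blood cells. The sources used here do not give the exact alleles or the number of animals per sample. Each group was deposited as 1 peak list pooled over its samples, so a difference between lists cannot be set against the spread between animals, and a mark in more of the cells cannot be told apart from more mark per cell. Markers of the sorted cells were acetylated: 7 of 8 stem and progenitor marker genes had a promoter peak in the Flt3-ITD/Runx1-het list (Gata2 did not), all 11 autosomal ubiquitous genes had one, and 0 of 18 genes chosen as silent in blood did.

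H3K27ac sits at active enhancers and promoters, while H3K4me1, the monomethyl mark on lysine 4, covers enhancers whether active or only primed. FLT3 is a cytokine receptor of early progenitors, and its internal tandem duplication (ITD) leaves the kinase signalling without ligand through STAT5 and the MAP kinases. RUNX1 is the DNA-binding core of a transcription factor that many blood enhancers use, and its loss of function and FLT3-ITD occur together in acute myeloid leukaemia.

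Promoters carry the members with the clearest link to a gene, and 6 RefSeq promoter windows (assembly GRCm38.p6, 250 bases before to 50 after the start) are printed to show the base composition of such sites. The window of Socs3, a feedback inhibitor of cytokine signalling, stands first because 4 of the 6 regions of that gene were members; it ends 24 bases from the promoter member, which covers another annotated start, and its capitals mark the single match to the STAT motif TTCNNNGAA. In the other 5 windows the capitals mark every CG dinucleotide.
Socs3, chr11:117969317-117969616, minus strand: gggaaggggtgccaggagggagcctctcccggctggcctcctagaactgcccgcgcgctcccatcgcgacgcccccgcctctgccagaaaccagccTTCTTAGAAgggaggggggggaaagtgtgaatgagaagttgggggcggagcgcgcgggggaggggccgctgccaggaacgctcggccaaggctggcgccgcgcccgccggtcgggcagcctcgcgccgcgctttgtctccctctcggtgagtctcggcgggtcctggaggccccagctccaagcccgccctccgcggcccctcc
Ndrg2, chr14:51913439-51913738, minus strand: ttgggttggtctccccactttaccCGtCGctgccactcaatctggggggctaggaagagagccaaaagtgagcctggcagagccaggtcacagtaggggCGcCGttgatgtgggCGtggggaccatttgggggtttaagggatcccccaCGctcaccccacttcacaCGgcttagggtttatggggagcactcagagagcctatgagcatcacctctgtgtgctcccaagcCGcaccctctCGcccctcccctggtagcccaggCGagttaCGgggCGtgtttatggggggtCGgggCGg
Timp3, chr10:86300162-86300461, plus strand: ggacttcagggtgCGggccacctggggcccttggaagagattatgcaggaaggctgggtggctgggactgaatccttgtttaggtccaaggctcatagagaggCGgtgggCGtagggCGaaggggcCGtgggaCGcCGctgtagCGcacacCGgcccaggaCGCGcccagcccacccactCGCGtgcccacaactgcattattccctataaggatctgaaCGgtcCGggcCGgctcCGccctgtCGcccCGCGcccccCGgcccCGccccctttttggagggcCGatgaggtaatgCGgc
Ttll7, chr3:146852117-146852416, plus strand: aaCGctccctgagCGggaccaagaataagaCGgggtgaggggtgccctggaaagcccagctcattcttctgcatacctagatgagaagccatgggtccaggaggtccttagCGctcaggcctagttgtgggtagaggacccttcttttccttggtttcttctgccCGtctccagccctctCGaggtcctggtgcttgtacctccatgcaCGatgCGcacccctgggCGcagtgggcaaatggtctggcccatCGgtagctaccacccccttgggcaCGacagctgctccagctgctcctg
Ccdc148, chr2:59160634-59160933, minus strand: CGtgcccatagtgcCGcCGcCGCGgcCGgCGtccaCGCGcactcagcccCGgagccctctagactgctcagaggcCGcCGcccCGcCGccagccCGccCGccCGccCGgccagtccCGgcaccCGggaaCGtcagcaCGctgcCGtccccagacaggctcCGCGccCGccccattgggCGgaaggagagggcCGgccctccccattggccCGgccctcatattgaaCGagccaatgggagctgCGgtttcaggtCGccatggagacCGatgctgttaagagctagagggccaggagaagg
D430019H16Rik, chr12:105453606-105453905, plus strand: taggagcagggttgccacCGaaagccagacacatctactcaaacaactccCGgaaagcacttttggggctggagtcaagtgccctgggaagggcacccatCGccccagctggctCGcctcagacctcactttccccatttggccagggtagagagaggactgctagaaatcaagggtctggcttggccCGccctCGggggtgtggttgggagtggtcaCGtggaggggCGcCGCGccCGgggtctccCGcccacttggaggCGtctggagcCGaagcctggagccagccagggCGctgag
These 5 are the promoters with H3K27ac in this list alone that had the highest fold enrichment among those in the RefSeq table with at least 100 bases of the window inside the member. The member covered 244 of the 300 bases at Ndrg2, 196 at Timp3, 224 at Ccdc148 and all 300 at Ttll7 and D430019H16Rik. The windows held 14 CG dinucleotides at Ndrg2, 24 at Timp3, 11 at Ttll7, 33 at Ccdc148 and 15 at D430019H16Rik. The RUNX motif TGTGGT was found on either strand in the window of D430019H16Rik and in none of the other 5.

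Across all RefSeq windows on these chromosomes, the 199 that a member overlapped and no shared region did were intermediate in composition between active and inactive promoters. Their median GC content was 57.7% (quartiles 51.7 and 63.5), against 61.3% in the 10519 windows overlapped by a shared region and 49.3% in the 19996 windows with no H3K27ac region. The ratio of observed to expected CG dinucleotides had a median of 0.469 in the member windows, 0.793 in the shared ones and 0.247 in those without a region. The 309 windows overlapped only by a single-list region of another genotype had a median GC content of 53.3% and a ratio of 0.403, and all windows one of 53% and 0.389. The member windows thus lay between all windows and the shared ones on both measures. The RUNX motif, searched on both strands, was in 16.1% of the member windows (95% interval 11.6 to 21.8) and in 16.7% of all 31396 windows. The STAT motif TTCNNNGAA, which reads the same on both strands, was in 8.54% (5.4 to 13.3) and in 8.35% of all windows. The ETS motif CGGAAG was in 13.1% (9.07 to 18.5) of member windows, in 35.2% of shared windows and in 17% of all, and the letters CGGAAG themselves hold a CG. A match is a run of letters and not evidence of binding.

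Each member consisted of 1 peak, with a median width of 313 bp (198 to 3297), and the 33770 peaks that the list had in its 25651 shared regions had a median of 751 bp. The shared regions themselves had a median of 1647 bp, but a shared region joins peaks of several lists and is wider by construction. Single-list regions of the other genotypes had median widths of 217 bp for wildtype, 271 for NUP98-HOXD13, 381 for Flt3-ITD, 411 for Flt3-ITD/NUP98-HOXD13 and 420 for Runx1-het, so the members lay within that range. The fold enrichment over control that the peak caller gave at the summit had a median of 3.53 among members and of 5.49 among shared regions. Placed within their own list, members lay at the median at percentile 22.7 of fold enrichment and shared regions at percentile 62.6. For both measures a shared region was given its strongest peak of the list, where a member has 1 peak. This raises the shared values in part by construction. Only 214 members reached a fold enrichment of 5 and 42 reached 6, and 731 (8.74%) had a q-value above 0.05 although they stood in the deposited list. The same rule gave 9913 regions in the wildtype list alone (14% of all merged regions), 5540 for Flt3-ITD (7.84%), 5344 for Runx1-het (7.56%), 4277 for Flt3-ITD/NUP98-HOXD13 (6.05%) and 3873 for NUP98-HOXD13 (5.48%).

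**Figure D1:**
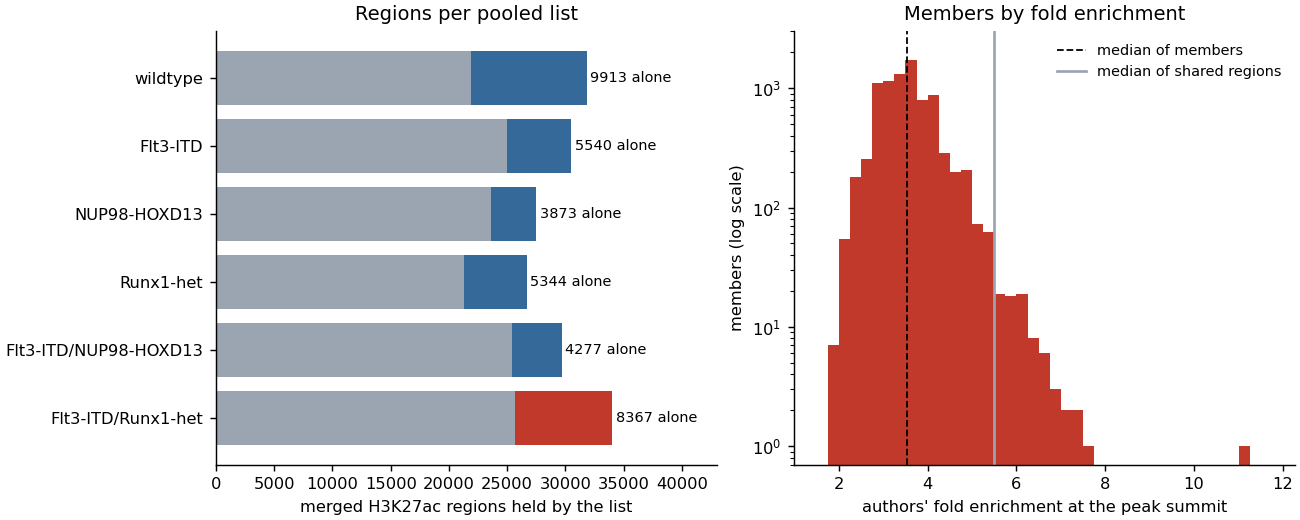
Left, merged H3K27ac regions held by each pooled list, with those in that list alone in blue or, for the 8367 members, red; grey regions are shared with another list. Right, number of members (log scale) by the authors' fold enrichment at the summit in steps of 0.25, with the medians of members (3.53, dashed) and of shared regions (5.49, grey line); a single member lies at 11.

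Many members stood beside acetylation that other genotypes also had. The median gap to the nearest peak of another list was 1448 bp, 3581 members (42.8%) lay within 1 kb of such a peak, and 1449 (17.3%) lay over 10 kb from one. Within 1 kb lay 29.7% of the single-list regions of wildtype and 51.7% of those of NUP98-HOXD13, the lowest and highest shares among the 5 other lists. At the boundary of the rule, 649 members (7.76%) were at most 100 bp from a peak of another list, and 427 shared regions (1.66%) were overlapped by at most 100 bp. Just inside the rule stood members near Rcan1 (3.05-fold, gap 0 bp), Drc7 (3.11-fold, 0 bp) and Reps1 (3.35-fold, 1 bp). Just outside stood regions near Pecam1 (4.24-fold, overlapped by 1 bp), Atp2a3 (2.35-fold, 2 bp) and Fcrls (3.05-fold, 2 bp).

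H3K4me1 was not used by the rule and gives a separate readout at the same places. Of the 8367 members, 42.5% (41.4 to 43.5; 3554 regions) carried an H3K4me1 peak of the Flt3-ITD/Runx1-het list, where 49.9% of all merged regions and 74.3% of shared regions did. Overlap is met more easily by wider regions, and with the mark required over the summit, a setting chosen after seeing the data, the shares were 29.3% of members, 27% of all merged regions, 33.9% of shared regions and 17.8% of the single-list regions of the 5 other genotypes. The order of members and all merged regions thus turned with that setting. The 42.5% was the highest share among the 6 H3K4me1 lists at these regions. The Flt3-ITD list marked 35.5% of members, Flt3-ITD/NUP98-HOXD13 34.3%, NUP98-HOXD13 32.3%, Runx1-het 22.3% and wildtype 21.3%. Over all merged regions the order was another one, with 52% for Flt3-ITD/NUP98-HOXD13, 51.1% for Flt3-ITD, 47.7% for NUP98-HOXD13, 41.3% for Runx1-het and 39.7% for wildtype. H3K4me1 was in the Flt3-ITD list and not in the Runx1-het list at 1640 members (19.6%), and the reverse at 536 (6.41%). The Flt3-ITD list has 93790 peaks and the Runx1-het list 72235, and over all merged regions the same shares were 16.5 and 6.75%, over the single-list regions of the 5 other genotypes 14 and 7.71%. With equal-length H3K4me1 lists they were 15.1 and 8.06% of members and 13 and 9.09% of all merged regions. The Flt3-ITD/Runx1-het H3K4me1 list is the longest of the 6, with 116497 peaks against 72235 to 95270. Its peaks were also the narrowest, with a median width of 297 bp against 344 to 437, and covered 44.5 Mb against 35 to 55.5. When every H3K4me1 list was shortened to 72235 peaks, the order of the lists stayed as it was, with 32.7% of members marked in Flt3-ITD/Runx1-het, 29.3% for the Flt3-ITD list, 27.8% for Flt3-ITD/NUP98-HOXD13, 26% for NUP98-HOXD13, 22.3% for Runx1-het and 21.2% for wildtype.

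The match between marks was measured against the other single-list regions. Of the single-list H3K27ac regions of the 5 other genotypes, 28.1% carried a Flt3-ITD/Runx1-het H3K4me1 peak, 14.4 percentage points below the members, and with equal-length H3K4me1 lists the difference was 12.8 points. That pool was mixed, with 37.5% for the regions of NUP98-HOXD13 alone, 35.6% for Flt3-ITD/NUP98-HOXD13, 33.2% for Flt3-ITD, 23.7% for Runx1-het and 20.6% for wildtype. Taken for each other set in the H3K4me1 list of its own genotype, the difference from the pooled rest was 18.3 points for the NUP98-HOXD13 regions. It was 17.2 for Flt3-ITD/NUP98-HOXD13, 7.5 for Flt3-ITD, 4.33 for Runx1-het and -6.81 for wildtype. In 590 members (7.05%, 6.52 to 7.62) the only H3K4me1 peak among the 6 lists was that of Flt3-ITD/Runx1-het, against 2.91% of all merged regions and 2.05% of shared regions. At the other end 2911 members (34.8%) had no H3K4me1 peak in any list and 436 (5.21%) had one in all 6. Over all merged regions these shares were 26.8 and 20.1%, and over the single-list regions of the 5 other genotypes 43.9 and 6.16%. The share with Flt3-ITD/Runx1-het H3K4me1 was 35.8% among the 1619 members under 3-fold, 40.6% from 3 to 4, 52.8% from 4 to 5 and 61.7% among the 214 members at 5-fold or more. It was 51.1% within 1 kb of a peak of another H3K27ac list, 38.5% from 1 to 10 kb away, 29.2% from 10 to 50 kb and 36% beyond 50 kb (81 of 225).

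**Figure D2:**
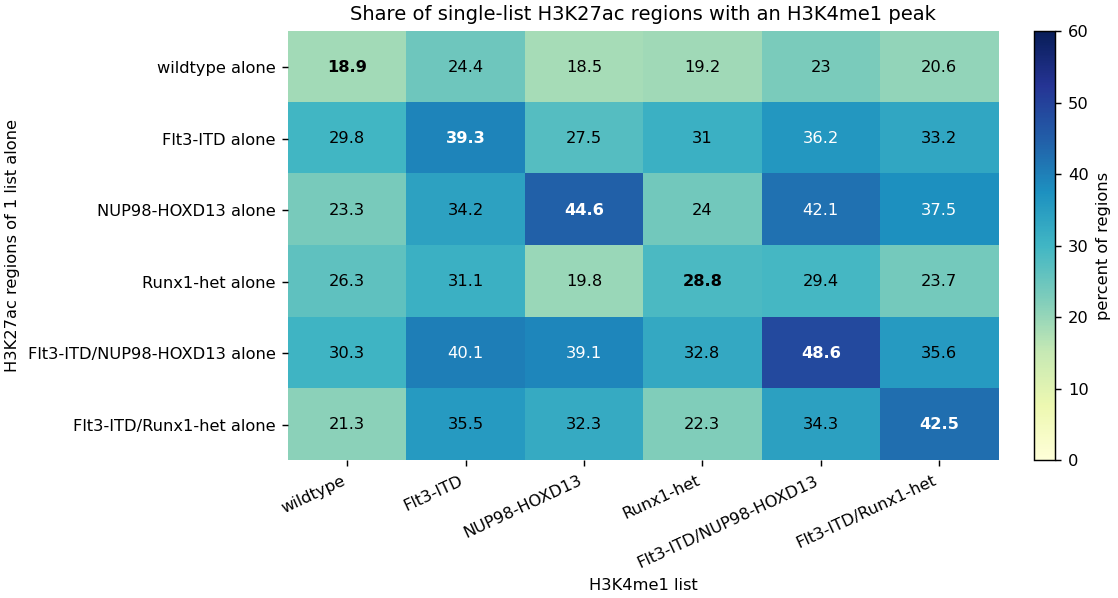
Percent of the H3K27ac regions found in 1 list alone (rows) that overlap an H3K4me1 peak of each list (columns), with the same genotype in bold on the diagonal. The members (bottom row) reach 42.5% in their own genotype and 21.3% in wildtype, and the regions of wildtype alone (top row) reach 18.9% in theirs.

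The 5 members with the highest H3K4me1 fold enrichment in the same genotype and no H3K4me1 peak in any other list were all outside promoters. The member at chr4:134655219-134655756, in an intron of Man1c1 (a mannosidase of the Golgi), and the member at chr2:92983345-92984021, in an intron of Prdm11 (a PR-domain protein), both reached an H3K4me1 fold enrichment of 8.77, with an H3K27ac fold enrichment of 3.53 and 3.22. They lay 592 and 3756 bp from a peak of another H3K27ac list. A member in an intron of Myof, which encodes the membrane-repair protein myoferlin, reached 8.41 for H3K4me1 and lay 14 bp from a peak of another H3K27ac list. Another at chr5:75465687-75465972, 109 kb upstream of Kit, the receptor for stem cell factor, also reached 8.41 and lay 175 bp from a peak of another H3K27ac list. The fifth, 4.8 kb downstream of the start of Shroom3, an actin-binding protein, reached 8.19 and was 56199 bp from any H3K27ac peak of another list.

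Most members were away from promoters. Introns held 52.6% of them, intergenic sequence 29.1%, exons 7.05% and promoters, taken as 1 kb on either side of a protein-coding start site, 11.2% (10.5 to 11.9; 937 regions). Promoters made up 40% of the shared regions, 7.38% of the single-list regions of the 5 other genotypes and 20% of all merged regions. Promoter members had Flt3-ITD/Runx1-het H3K4me1 in 32.6% of cases, and intronic and intergenic members in 44.5% each.

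The strongest member of all lay in the T cell receptor gamma locus. It spanned 3297 bp at chr13:19209885-19213181, the greatest width among members, had a fold enrichment of 11 and a -log10 q of 25.1, and overlapped the joining segment Trgj1 next to the constant segment Tcrg-C1. H3K4me1 was called there in Flt3-ITD/Runx1-het (5.14-fold), Flt3-ITD (4.41-fold) and Flt3-ITD/NUP98-HOXD13 (2.97-fold), and not in wildtype, Runx1-het or NUP98-HOXD13. In the whole locus, whose segments are rearranged in developing T cells, 6 of 18 merged regions were members, and the Flt3-ITD/Runx1-het list held 11 regions against 7 for the Flt3-ITD list, 6 for wildtype, 4 each for Runx1-het and Flt3-ITD/NUP98-HOXD13, and 2 for NUP98-HOXD13. The T cell receptor beta locus had 2 members of 39 regions and the alpha and delta locus 2 of 21. Promoter peaks at T and NK cell genes numbered 4 of 17 in the Flt3-ITD/Runx1-het list and 3 to 5 in the others, and whether such cells took part in this member was not tested.

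The next strongest members had fold enrichments between 6.73 and 7.62. The second (7.62-fold) was 20.6 kb from the start of the zinc finger gene Zfp957 and 38 bp from a peak of another list. At Ndrg2, a member of the N-myc downstream regulated family, the member at chr14:51913495-51913996 covered a start site at 7.49-fold, was 28225 bp from any peak of another list and had no H3K4me1 peak in any list. The member beside the olfactory receptor gene Olfr524 (7.27-fold, 130 bp upstream of its start) was 67279 bp from another list's peak and carried H3K4me1 in Flt3-ITD/Runx1-het (6.96-fold) and Flt3-ITD (3.76-fold) alone. A 7.09-fold member in an intron of Ncoa1, a nuclear receptor coactivator, had no H3K4me1 in any list. Another 7.09-fold member at chr2:128430130-128430700 overlapped the long non-coding RNA gene Gm14005, listed by RefSeq as Morrbid, which in mice holds down the death gene Bcl2l11 in short-lived myeloid cells; it was 121 bp from a peak of another list. The remaining members of the top 10 lay at Rapgef5, an activator of Rap GTPases (6.91-fold, 0.761 kb into the gene), upstream of Abhd2 (6.91-fold), upstream of Srp9, which encodes a subunit of the signal recognition particle (6.83-fold), and in an intron of Ndrg1 (6.73-fold).

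Genes of cytokine feedback and STAT5 had a high share of members. Of 128 merged regions nearest to the 18 genes of this list, 29 (22.7%) were members, where 12.2% of all 56816 regions within 50 kb of a start site were. Single-list regions of the other genotypes at the same genes numbered 11 for Flt3-ITD, 6 for Flt3-ITD/NUP98-HOXD13, 5 for wildtype, 4 for NUP98-HOXD13 and 2 for Runx1-het. With every H3K27ac list shortened to 31518 peaks the share was 16.2% against 7.51% of all regions, and counting only members over 1 kb from another list it was 14.1% against 6.81%. At a -log10 q of at least 5 in every H3K27ac list it was 7.58% (5 of 66 regions) against 4.67%. Flt3-ITD/Runx1-het H3K4me1 was present at 19 of the 29 members (65.5%) and wildtype H3K4me1 at 10. Over all 8367 members these shares were 42.5% and 21.3%, so H3K4me1 of either list was called more often at these 29 members, a small number.

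All 6 regions nearest to a start of Socs3 were held by the Flt3-ITD/Runx1-het list. Wildtype held 0 of them, Flt3-ITD/NUP98-HOXD13 2 and each single-allele list 1. Acetylated regions nearest to other genes are not among the 6. The wider window drawn around Socs3 had 4 H3K27ac peaks of wildtype, 5 of Runx1-het and 6 of Flt3-ITD/NUP98-HOXD13. It had 7 of Flt3-ITD, 8 of NUP98-HOXD13 and 11 of Flt3-ITD/Runx1-het. The promoter member at chr11:117968273-117969292 had a fold enrichment of 4.12 and no H3K4me1 in any list, and upstream members at chr11:117974454-117974978 (3.7-fold) and chr11:117975667-117976505 (4.01-fold) both carried Flt3-ITD/Runx1-het H3K4me1. Neither upstream member had H3K4me1 in wildtype or Runx1-het, and both had it in NUP98-HOXD13 (2.94 and 4.48-fold). The first of them also had it in Flt3-ITD (4.41-fold) and Flt3-ITD/NUP98-HOXD13 (4.94-fold). The remaining member, at chr11:117957610-117957934 (3.17-fold, 11.3 kb downstream of the start), had H3K4me1 in wildtype (5.59-fold), Flt3-ITD (3.55-fold) and Flt3-ITD/Runx1-het (5.87-fold).

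Other inhibitors of the same family had members too. Socs1 had 4 members of 12 regions, 2 of them in introns of the neighbouring Clec16a, and the list held 10 of its regions against 3 to 6 in the others. The 4 members lay 38, 196, 410 and 2830 bp from a peak of another list. Socs2, named here after its values were seen, had 3 of 13, including one at its promoter (4.54-fold), and there the Flt3-ITD list held 10 regions and the Flt3-ITD/Runx1-het list 9. Cish, also named after its values were seen, had 2 of 5. Pim1, a survival kinase induced by STAT5, had 4 of 14, of which the strongest (4.87-fold) lay 47.9 kb upstream. Ccnd3, which encodes cyclin D3, had 4 of 27, near the background share.

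**Figure D3:**
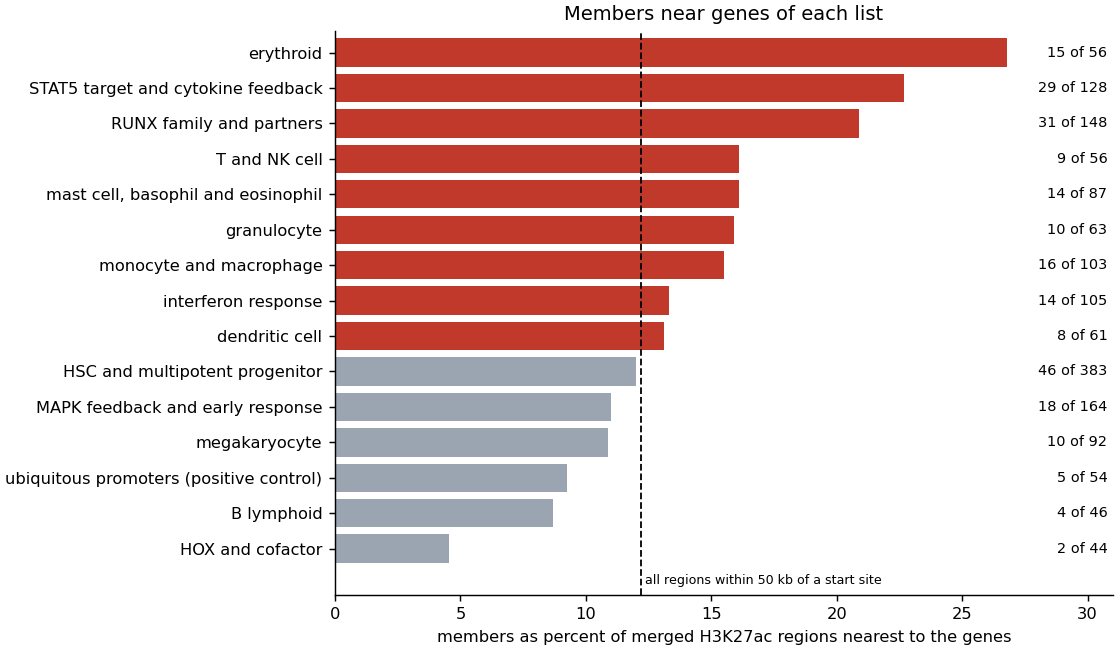
Members as percent of the merged H3K27ac regions nearest to the genes of each list, with members and regions at the right; the dashed line is the 12.2% of all regions within 50 kb of a start site, and bars above it are red. Erythroid, STAT5 and RUNX genes have the highest shares, and the HOX list (2 of 44) the lowest; the list of genes silent in blood, with 1 region and 0 members, is left out.

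Runx1, the gene altered in this genotype, itself carried 18 members of 63 regions (28.6%). The Flt3-ITD/Runx1-het list held 41 of its regions, Flt3-ITD/NUP98-HOXD13 28, Flt3-ITD 24, wildtype 20, Runx1-het 17 and NUP98-HOXD13 14. The strongest of the 18, at chr16:92692901-92694912, was 2012 bp wide with a fold enrichment of 6.38, lay 0.583 kb downstream of an internal start site and carried H3K4me1 in all 6 lists (3.32 to 7.4-fold). Over all 18, H3K4me1 was present at 12 by the Flt3-ITD list, at 11 by Flt3-ITD/NUP98-HOXD13, at 9 each by Flt3-ITD/Runx1-het and NUP98-HOXD13, at 8 by Runx1-het and at 7 by wildtype. The other RUNX genes had lower shares: Runx3 had 5 members of 34 regions and Runx2 had 4 of 30, while Cbfa2t3, a RUNX-linked corepressor, had 4 of 12. The whole list of 7 genes reached 20.9% (31 of 148). It reached 10.3% against 7.51% with equal-length lists, 6.76% against 6.81% when members within 1 kb of another list were left out, and 7.27% (4 of 55) against 4.67% at the stricter q. Flt3, whose product is the mutated receptor, had 0 members among its 16 regions, of which the Flt3-ITD/Runx1-het list held 6 and wildtype 10, and Nup98 had 1 of 4.

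Among the lineage lists erythroid genes had the highest share, and the others ran from 8.7% (B lymphoid) to 16.1% around the background of 12.2%. Erythroid genes had 15 members of 56 regions (26.8%), and 8 of the 17 genes had a member. Zfpm1, the partner protein of GATA1, led with 5 of 15, and the water channel gene Aqp1 had 3 of 5. The transferrin receptor gene Tfrc had 2 of 7. Car2 had 1 of 14, and there the Flt3-ITD/Runx1-het list held 4 regions and the other lists 4 to 9. Promoter peaks at erythroid genes numbered 7 of 15 in the Flt3-ITD/Runx1-het list and 3 to 5 in the others; Klf1 and Aqp1 had one in this list alone (3.17 and 4.06-fold), 229 and 435 bp from a peak of another list. Their share was 15.9% against 7.51% with equal-length lists, and at the stricter q it was 5.56% (1 of 18 regions) against 4.67%. Of the 15 members, 4 carried Flt3-ITD/Runx1-het H3K4me1. The part that a different share of erythroid cells played was not tested.

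Granulocyte genes had 10 of 63 (15.9%), including Mpo (2 of 8) and Cxcr2 (3 of 8), and monocyte and macrophage genes 16 of 103 (15.5%), of which the matrix gene Emilin2 gave 8 and the chemokine receptor gene Cx3cr1 gave 3. Mast cell, basophil and eosinophil genes had 14 of 87 (16.1%), with Kit at 6 of 35, Il4 at 3 of 7 and Gata2 at 2 of 9. All 9 members of the T and NK list belonged to Notch1 (9 of 23 regions). Interferon response genes had 14 of 105 (13.3%), among them Irf8 with 3 of 15, Rsad2 with 2 of 8 and Usp18 with 2 of 7.

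Stem and multipotent progenitor genes had 46 of 383 (12%), and besides Runx1 and Kit these were led by Fli1 with 5 of 37 and Mllt3 with 4 of 26. MAP kinase feedback genes had 18 of 164 (11%), of which the ERK phosphatase gene Dusp5 gave 8 of its 23 regions and Fos 3 of 16. Dendritic cell genes had 8 of 61, B lymphoid genes 4 of 46 and ubiquitous genes 5 of 54. Megakaryocyte genes had 10 of 92, with Fli1 at 5 of 37, Vwf at 3 of 6, Nfe2 at 1 of 5 and Itgb3 at 1 of 12. HOX genes and their cofactors had 2 of 44, where 11 were in the Flt3-ITD/NUP98-HOXD13 list alone.

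The number of members varied between genes. Of 12524 genes with a region, 3753 had a member, 228 had at least 5 and 25 had at least 10. These counts are not given here for the single-list regions of the other genotypes, and a gene with more regions can hold more members. Map7, a microtubule-binding protein, led with 21 of 51 regions, and its highest member fold was 5.1. Cmip followed with 19 of 57, and Ksr1, the scaffold of the RAF, MEK and ERK kinases, with 19 of 50. Epb41l4b, of the band 4.1 family, had 18 of 37, the highest share (48.6%) among the 10 genes with most members. Zmiz1, a transcriptional coactivator, had 18 of 82, Susd1 17 of 62, Elmo1, which helps activate Rac, 16 of 84, the actin-binding protein gene Ablim1 14 of 40 and the semaphorin gene Sema4d 14 of 36. At Ksr1 the Flt3-ITD/Runx1-het list held 41 regions and the other lists 10 to 22, and at Sema4d it held 30 against 5 to 12. These 10 genes together gave 174 members of 562 regions, and genes were ranked here by the count of members itself.

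**Figure D4:**
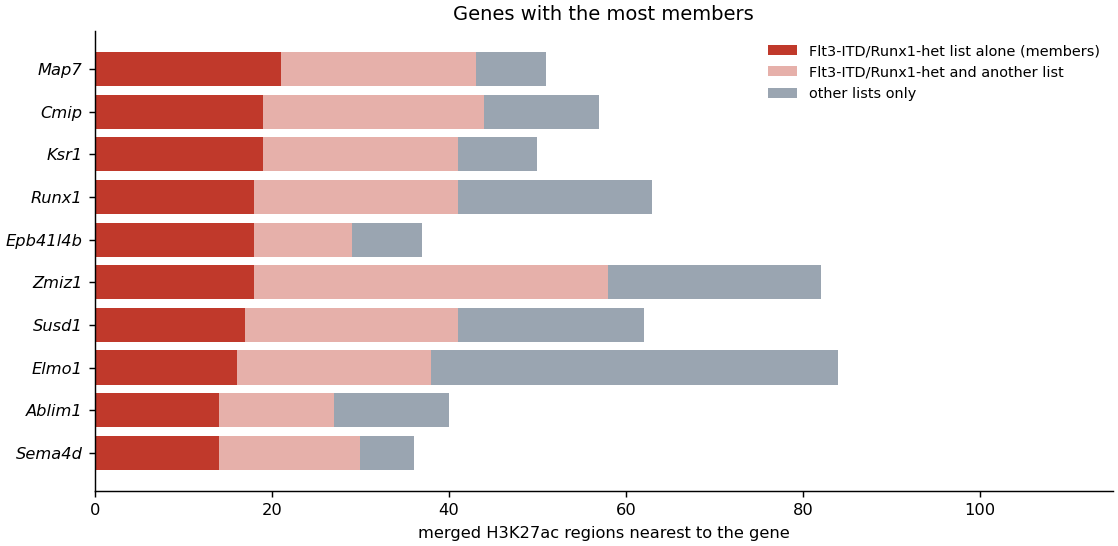
Merged H3K27ac regions nearest to each of the 10 genes with the most members, split into members (red), regions that the Flt3-ITD/Runx1-het list shares with another list (pink) and regions of other lists only (grey). Members range from 21 at Map7 to 14 at Ablim1 and Sema4d.

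Neighbouring members were joined into stretches when the gap between them was at most 10 kb, which gave 1307 stretches of 2 or more holding 40% of members, and 71 of at least 5. Stretches of the single-list regions of other genotypes are not given here for comparison. In 6 of the 71 every merged H3K27ac region was a member. The one with most members, at chr12:24838515-24855454 inside Mboat2, which encodes a lysophospholipid acyltransferase, held 9 members of 2.89 to 4.77-fold, centred from 7.75 to 24.5 kb downstream of the start. H3K4me1 of Flt3-ITD/Runx1-het was present at 8 of the 9, that of Flt3-ITD at 1 and that of the other 4 lists at 0. The H3K4me1 lists themselves had 9 peaks in that stretch for Flt3-ITD/Runx1-het, 2 for Flt3-ITD and 0 for each of the rest. The Flt3-ITD/Runx1-het H3K4me1 peaks were the narrowest of all lists, so counts of peaks do not compare the length marked.

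The other 5 held 5 or 6 members each. In the transcription factor gene Sox5 (chr6:143856630-143862714) all 5 members had Flt3-ITD/Runx1-het H3K4me1 and 4 had that of Flt3-ITD, with 0 for the 4 other lists. At Cradd, a death-domain adaptor gene, 4 of 6 members had H3K4me1 of Flt3-ITD/Runx1-het and 4 that of Flt3-ITD. At Gna12, a G protein subunit gene, the counts were 2 of 5 for Flt3-ITD/Runx1-het and 3 for Flt3-ITD, and at Nol4l they were 3 of 5 for both, with 4 for NUP98-HOXD13. The stretch at Timp3, an inhibitor of metalloproteinases, was 7.44 kb long and also overlapped Syn3. Its strongest member (5.29-fold) covered a start site, 2 of its 5 members carried Flt3-ITD/Runx1-het H3K4me1, and 1 each carried that of Flt3-ITD and NUP98-HOXD13. Wildtype H3K4me1 was called at 0 members of all 6 stretches.

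Stretches with 1 region that was no member varied in H3K4me1. Beside Dhrs7c, 8 of 9 regions were members, all 8 with Flt3-ITD/Runx1-het H3K4me1, 3 with that of Flt3-ITD and 0 with that of the rest. Upstream of Srp9, where 8 of 9 regions were members, the counts were 8 for Flt3-ITD/Runx1-het, 3 for Flt3-ITD, 2 for Flt3-ITD/NUP98-HOXD13, 1 each for NUP98-HOXD13 and Runx1-het, and 0 for wildtype. At Nfatc1, a transcription factor gene of calcium signalling, 8 of 9 were members, but 2 carried Flt3-ITD/Runx1-het H3K4me1.

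**Figure D5:**
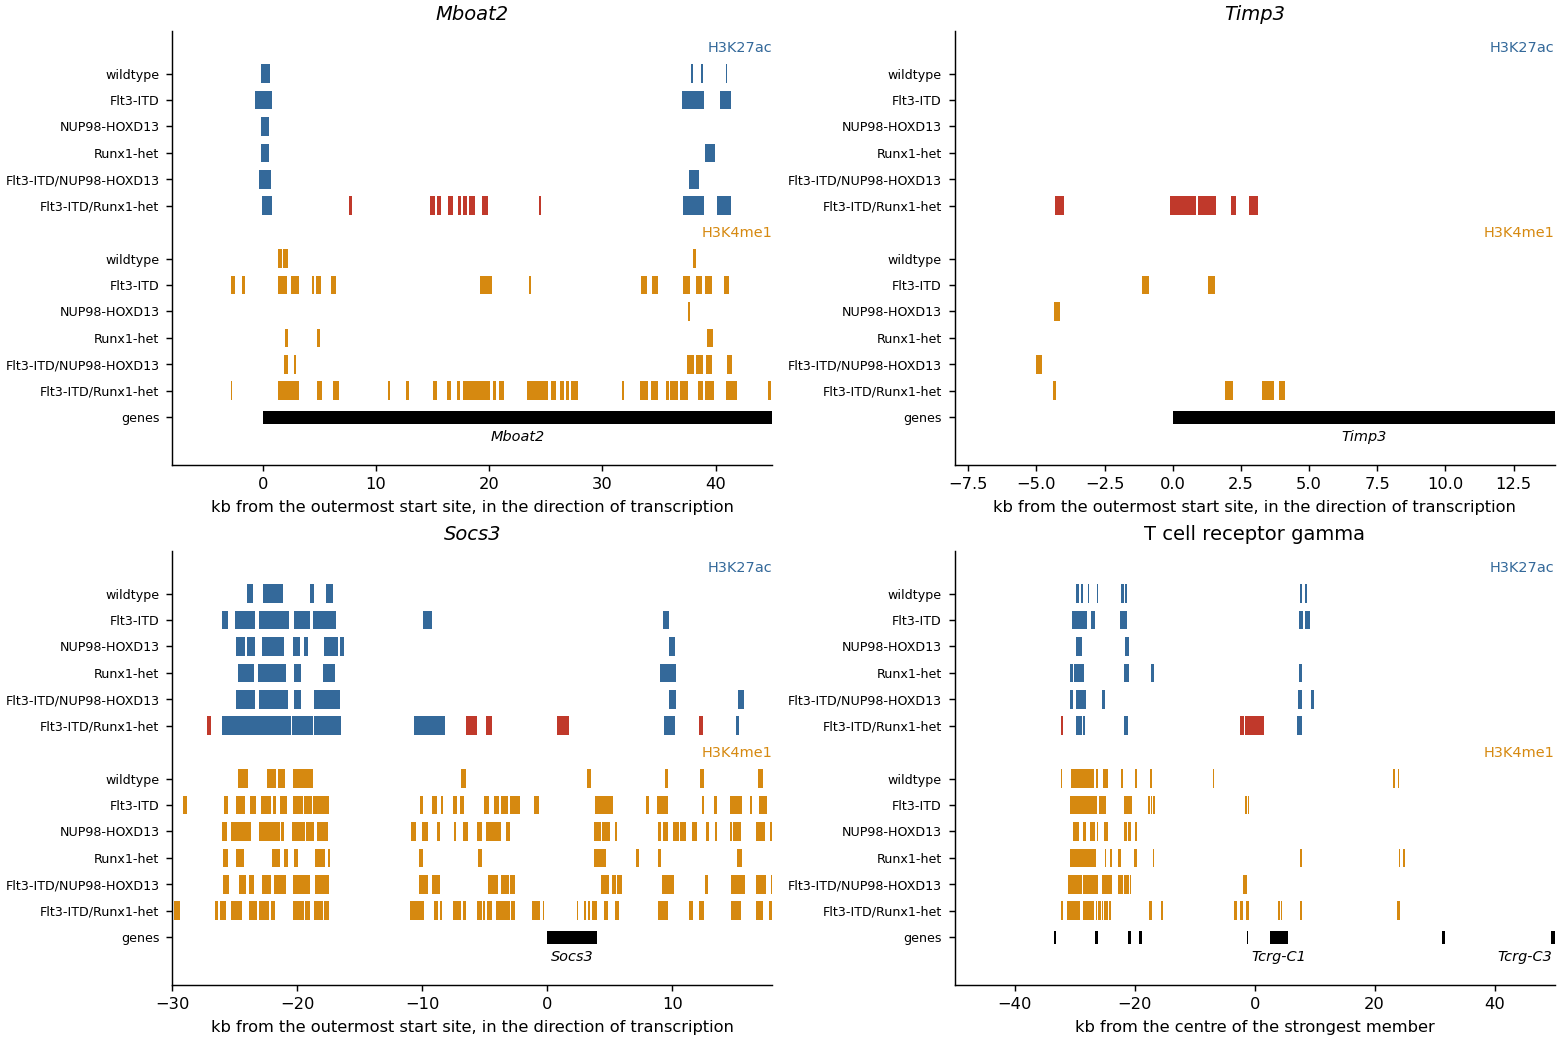
Peaks of the 6 H3K27ac lists (blue, members in red) and the 6 H3K4me1 lists (orange) at Mboat2, Timp3, Socs3 and the T cell receptor gamma locus, by distance in kb from the outermost annotated start site or from the centre of the strongest member; black bars are genes or gene segments. At Timp3 the only H3K27ac peaks drawn are the 5 of Flt3-ITD/Runx1-het, at Socs3 the red peak farthest upstream is nearest to another gene, and at Mboat2 the 9 members lie between peaks that other lists also have.

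Whole promoters were also compared between lists. Of 10156 genes with a promoter peak in the Flt3-ITD/Runx1-het list, 212 (2.09%) had none in the 5 other lists, where the same share for the others ran from 0.56% (Runx1-het) to 1.19% (wildtype). Of these 212, 199 had a member at the promoter. Of those members 77 covered a start site, 38 carried Flt3-ITD/Runx1-het H3K4me1 and 105 were over 10 kb from any peak of another list. Among all 937 promoter members 211 covered a start site and 32.6% carried that H3K4me1, and 17.3% of all 8367 members were over 10 kb away. The 212 genes were chosen for having no promoter peak in another list, so the distance follows in part from the choice. Besides Ndrg2, Olfr524, Rapgef5 and Timp3, the strongest included Stx18, a syntaxin gene (6.2-fold, 179277 bp from another list's peak), and Azin2, a regulator of polyamine synthesis (5.84-fold). Il2ra, the gene of the interleukin-2 receptor alpha chain, also had a promoter peak in this list alone (3.78-fold). By contrast other strong promoter members stood beside peaks of other lists, as at Sap30l (6.55-fold, 98 bp away), Cst3, which encodes cystatin C (6.38-fold, 205 bp), S1pr3, a sphingosine-1-phosphate receptor gene (6.02-fold, 532 bp), Heatr5b (6.02-fold, 330 bp) and Tnfrsf26 (6.02-fold, 486 bp).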

How the data were processed

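H3K27ac and H3K4me1 were measured in 39 samples of 12 groups (genotype by mark, from the labels), and 1 input sample was not used here. The submitters' processing notes name BWA, MACS2 and the build mm10 (GRCm38); tool versions and any threshold before deposit, not given in the sources used here, are unknown. Per the labels each group has 1 pooled list, so there is no value per sample, no test and no p-value of a difference, and read depth is unknown. Each deposited peak has a score, a ratio (the authors' fold enrichment at the summit), a -log10 p, a -log10 q and a summit position; the score was not used.

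Peaks were merged and shares computed in Python 3.11.15 with pandas 2.3.3 and scipy 1.17.1. Wilson intervals cover counting error only, and regions of a pooled list are not replicates. Gene starts came from GENCODE mouse M21 on GRCm38 (protein-coding genes). A region went to the nearest start site within 50 kb; antisense or overlapping genes cannot be told apart by it. Named are the 10 strongest members, the 10 strongest at promoters, the 10 genes with most members, up to 4 genes per list with most members, Flt3, Runx1 and the 5 members with the highest H3K4me1 fold in the same genotype alone; others were chosen after their values were seen. The members and the 16 gene lists were chosen with earlier results of these data known. The planned windows at summits need a genome sequence, which was not used here, so promoter windows of RefSeq took their place. Stretches were joined by a rule set after values were seen. The merging was checked on planted regions in simulated lists.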

Additional observations from a re-analysis of the deposited data

How the results depend on the processing

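No paired analysis was possible because each group gave 1 pooled list. The 8367 members became 4169 with every H3K27ac list shortened to 31518 peaks, 3658 with the Flt3-ITD/Runx1-het list alone shortened, 1323 at a -log10 q of at least 5 and 4786 with no peak of another list within 1 kb. They became 9267 where peaks had to cover at least a 0.5 share of the region. In the first 4 settings, in that order, the share with Flt3-ITD/Runx1-het H3K4me1 (42.5%) was 51.1, 49.3, 66.1 and 36%, the promoter share (11.2%) 12.7, 12.4, 21.8 and 10.1%, and the STAT5 share (22.7%) 16.2, 12.3, 7.58 (5 of 66) and 14.1%. Over all regions near a start site (12.2%) the member share was 7.51, 5.72, 4.67 and 6.81% in these settings. The RUNX motif share of member promoter windows was 11.5% at the stricter q and 13.3 to 17.3% in the other 3. The H3K4me1 share was 32.7% with equal-length H3K4me1 lists, 11.9% at a -log10 q of at least 5 in them, 66.6% with a peak within 1 kb and 29.3% over the summit, a setting chosen after seeing the data. In the same order, the shares over all merged regions were 40, 17.9, 66.4 and 27%. Over the single-list regions of the 5 other genotypes they were 19.9, 6.46, 47.5 and 17.8%. The share with Flt3-ITD/Runx1-het H3K4me1 alone (7.05%) was 5.06% at the stricter H3K27ac q and 7.63% away from other lists. It was 5.89% with equal-length H3K4me1 lists, 5.56% at the stricter H3K4me1 q and 5.32% with peaks within 1 kb. Over all merged regions (2.91%) it was 2.22, 3.2 and 2.17% in these H3K4me1 settings. Promoters of 2 kb held 17.8%. The sequence windows of another width and those outside promoters were not run, and leaving out a replicate was not possible with pooled lists. Depth limits which weak peaks were called in each list, by an amount not known here.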

Other observations

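Among the 71 stretches of at least 5 members, the one with most members lay in Epb41l4b, with 17, of which 11 had Flt3-ITD/Runx1-het H3K4me1 and 4 had that of wildtype. The H3K4me1 lists held 49 peaks there in Flt3-ITD/Runx1-het, 32 in Flt3-ITD and 14 to 21 in the others. Here too the counts are of peaks, narrowest in the Flt3-ITD/Runx1-het list, and not of the length marked. In Ksr1 a stretch of 12 members had 37 H3K4me1 peaks of Flt3-ITD/Runx1-het, 32 of NUP98-HOXD13, 30 of Flt3-ITD/NUP98-HOXD13, 22 of Flt3-ITD and 13 each of Runx1-het and wildtype. A stretch in Gse1 held 12 members of 18 regions, 8 of them with Flt3-ITD/Runx1-het H3K4me1 and 1 with that of wildtype. At Map7 a stretch of 10 members carried H3K4me1 at 7 in both wildtype and Flt3-ITD/Runx1-het. At Kcnk5, a potassium channel gene, the Flt3-ITD/Runx1-het list held all 14 regions of a stretch, where the 5 others held 0 to 3. Of the 14, 9 were members and so in this list alone by the rule, which fixes part of that difference.

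The immunoglobulin heavy chain locus, which lymphoid progenitors open and rearrange, had 10 members of 165 regions, a share below the 11.8% of all merged regions. Each other list alone had 9 to 27 regions there. By chromosome, members made up from 9.05% of merged regions (chromosome 3) to 14% (chromosome 8).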
